A study of Mus musculus with 6 samples.

Results

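The 8 genes Itgax, Flt3, Irf8, Tcf4, Siglech, Cst3, Bst2 and Zbtb46, which mark or specify dendritic cells, were followed in a Treg preparation. They were taken from a fixed list of dendritic cell lineage genes without MHC class II, and all probe sets that the platform annotation assigns to 1 of these symbols were used. This gave 15 of the 22626 probe sets of the array, covering 7 of the 8 genes. No probe set of Siglech, a lectin of plasmacytoid dendritic cells, was measured here.

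The study compared HDAC11-/- Tregs, labelled fl-HDAC11/Foxp3cre, with Tregs of wild type C57BL6 mice, on 3 Affymetrix Mouse430A arrays per genotype. Floxed Hdac11 was deleted by Cre made under Foxp3, so cells in the fraction that never expressed Foxp3 keep Hdac11. The wild type mice carry no Cre, and the effects of Cre and of the deletion cannot be told apart. CD4+CD25+ cells were taken with magnetic beads, which enriches Tregs and can leave other cells in the fraction. Neither a treatment nor the age of the mice is in the labels.

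Dendritic cells take up antigen and present it to T cells. Conventional dendritic cells (cDC1 and cDC2) specialise in this presentation, and plasmacytoid dendritic cells (pDC) in making type I interferon. They arise under FLT3 signalling, with IRF8 and ZBTB46 as factors of the conventional lineage and TCF4 (E2-2) as the factor that sets pDC identity. Several of these genes are also used outside dendritic cells, such as Irf8 and Tcf4 in B cells, Bst2 wherever interferon acts, and Cst3 in most tissues.

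The genes did not move together in HDAC11-/- Tregs. Itgax and Tcf4 were lower, by 1.31-fold and 1.29-fold in their brightest probe sets, and Cst3 and Bst2 were higher, by 1.24-fold each, while neither Irf8 nor Flt3 passed the test. A difference was accepted at an adjusted p under 0.05 (limma, Benjamini-Hochberg over all probe sets), and a call needed at least a 1.5-fold difference as well. Of the 15 probe sets, 1 was called, a Tcf4 probe set that was lower, and over the whole array 8.90% were called (5.03% lower, 3.87% higher). By the adjusted p alone 6 were lower and 2 higher, which is 53.3% of them against 45.6% of all probe sets (22.4% lower, 23.2% higher), so the share lay near that of the array. The groups did not overlap in 8 of the 15 (6 lower, 2 higher), against 56.7% of all probe sets (28.5% lower, 28.2% higher). Of the 6 lower by the adjusted p, 4 exceeded the bacterial controls on any array. The median log2 fold change was -0.18 over the 15 probe sets and -0.034 over all tested ones. With each gene counted once, by its brightest probe set, the median was -0.04 for the 7 genes and -0.039 for all genes. Read by its brightest probe set, that is the one with the highest mean over the 6 arrays, none of the 7 genes was called by limma or by SAM. With limma's p left unadjusted, 3 of these 7 genes were lower and 2 higher at 0.05, the same numbers as with the adjusted p. Itgax, Zbtb46, Tcf4, Cst3 and Bst2 kept these directions when the arrays were scaled on reference genes or on bacterial controls. Zbtb46 did not pass on the scale of the bacterial controls (limma, adjusted p = 0.058). Of the 12 reference genes, 4 were themselves higher at the adjusted p and none lower. On their scale the median of all probe sets was -0.15. When the arrays were scaled on the cre controls, the median of all probe sets moved to 0.45, and Itgax, Zbtb46 and the brightest probe set of Tcf4 changed sign.

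**Figure D1:**
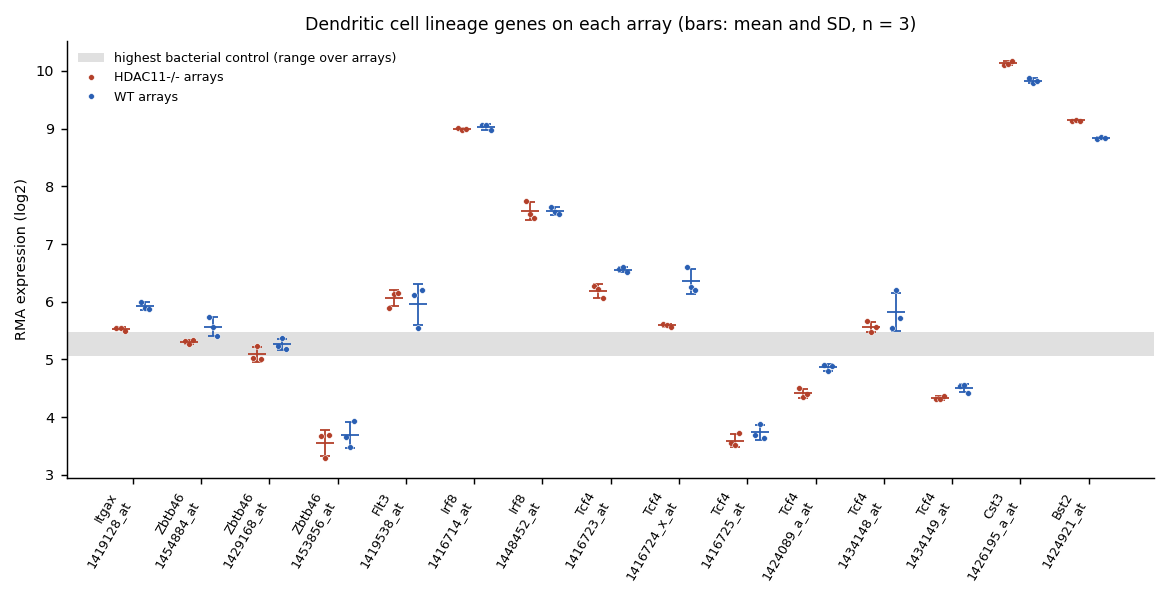
RMA expression (log2) of the 15 probe sets on each array, with HDAC11-/- left of WT and bars for the mean and SD of 3 arrays. The grey band spans the highest bacterial control of each array, from 5.06 to 5.48. Cst3 and Bst2 lay higher on all HDAC11-/- arrays and Itgax lower on this scale (a log2 fold change of 0.09 on that of the cre controls), and 4 probe sets of Tcf4 and Zbtb46 lay below the band on every array.

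The promoter windows of 4 genes are shown because on the deposited scale these genes form a lower pair (Itgax and Zbtb46) and a higher pair (Bst2 and Cst3). Tcf4, which was also lower on that scale, is not shown because the RefSeq windows used hold none for it. Zbtb46 passed the test in fewer alternatives than the other 3. Each is read on the strand of its gene and runs from 250 bases before to 50 bases after the start of the gene in RefSeq on GRCm38.p6. Itgax lies at chr7:128129300-128129599 (plus strand), Zbtb46 at chr2:181424339-181424638 (minus strand), Bst2 at chr8:71537423-71537722 (minus strand) and Cst3 at chr2:148875463-148875762 (minus strand). Capitals mark matches on either strand to GAAANNGAA (the core of interferon response elements), GGAANNGAA (an Ets-IRF composite), TGANTCA (the AP-1 element) or GAGGAA (an Ets core).
Itgax: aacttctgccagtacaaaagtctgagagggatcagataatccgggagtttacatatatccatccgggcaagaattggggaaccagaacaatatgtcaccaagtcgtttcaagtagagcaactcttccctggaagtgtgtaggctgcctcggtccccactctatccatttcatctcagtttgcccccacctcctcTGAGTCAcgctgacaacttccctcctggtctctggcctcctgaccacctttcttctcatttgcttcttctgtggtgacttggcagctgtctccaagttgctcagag
Zbtb46: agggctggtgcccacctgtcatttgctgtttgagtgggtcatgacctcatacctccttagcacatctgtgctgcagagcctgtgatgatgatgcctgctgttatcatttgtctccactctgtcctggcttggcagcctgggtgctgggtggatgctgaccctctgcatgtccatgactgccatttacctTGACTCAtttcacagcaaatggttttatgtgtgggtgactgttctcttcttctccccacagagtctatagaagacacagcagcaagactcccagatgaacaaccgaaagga
Bst2: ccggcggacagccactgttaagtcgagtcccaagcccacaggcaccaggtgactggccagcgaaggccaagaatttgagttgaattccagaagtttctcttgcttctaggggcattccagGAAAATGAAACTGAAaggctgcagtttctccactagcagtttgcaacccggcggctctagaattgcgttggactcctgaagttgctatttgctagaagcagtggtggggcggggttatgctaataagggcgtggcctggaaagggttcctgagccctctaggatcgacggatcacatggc
Cst3: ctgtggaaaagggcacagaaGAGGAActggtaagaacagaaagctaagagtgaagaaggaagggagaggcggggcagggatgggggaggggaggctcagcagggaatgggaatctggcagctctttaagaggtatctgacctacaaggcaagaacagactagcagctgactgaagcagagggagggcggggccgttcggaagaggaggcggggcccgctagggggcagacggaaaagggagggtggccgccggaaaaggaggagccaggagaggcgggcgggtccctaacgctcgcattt

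The Itgax and Zbtb46 windows each held 1 match to TGANTCA, at -56 and -61 from the start, a motif found in 7.81% of the 32851 RefSeq windows. The bases before the annotated start of Zbtb46 end with the letters of a splice acceptor, so this window may not be a promoter. The Bst2 window held 2 overlapping matches to GAAANNGAA, at -130 and -124, which 8.56% of all windows hold. The Cst3 window held 1 match to GAGGAA at -230, which 28.3% of windows hold. No window of these 4 held GGAANNGAA, which 8.24% of all windows hold. The windows of Flt3 and Irf8 held none of these 4 motifs, and that of the unmeasured Siglech held 1 GAGGAA. The E-box CANNTG, the letters that TCF4 and other E proteins read, was in 72.3% of all windows and is not marked. A match describes the letters in the window and no binding was measured.

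Itgax encodes CD11c, the integrin alpha chain used to identify dendritic cells, which is also found on activated lymphocytes and macrophages. Its probe set (1419128_at) read 5.55, 5.55 and 5.50 on the log2 scale on the HDAC11-/- arrays, against 6.0, 5.90 and 5.88 on the WT arrays. Every HDAC11-/- array lay below every WT array, with a gap of 0.33. This is a log2 fold change of -0.39 with an SE of 0.05 (adjusted p = 0.00129), lower in 3 of 3 arrays and short of the 1.5-fold threshold. It changed sign, to 0.09 (adjusted p = 0.17), when the arrays were scaled on the cre controls. All 6 values stood above the highest bacterial control of their array, which reached 5.28 on HDAC11-/- arrays and 5.48 on WT arrays, but by little. CD11c pairs on the cell surface with the beta2 chain encoded by Itgb2. Itgb2 averaged 12.31 in HDAC11-/- and 12.54 in WT Tregs, which is -0.23 as a log2 fold change (adjusted p = 0.00413). Itgal, the alpha chain of LFA-1 on lymphocytes, was at 0.03 (adjusted p = 0.701), and Itgam, the alpha chain of Mac-1, lay at or below the bacterial controls on all arrays. Of these 3 other beta2 integrin genes none was called by limma or SAM, and 1 was lower at an unadjusted p under 0.05.

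Zbtb46 encodes a zinc finger factor of conventional dendritic cells. Its brightest probe set (1454884_at) read 5.32, 5.27 and 5.33 on the HDAC11-/- arrays, against 5.73, 5.56 and 5.40 on the WT arrays. The groups were apart by 0.08 only, with WT replicate 3 the nearest to the HDAC11-/- arrays. All values stood above the highest bacterial control of their array, but by little. That control was 5.28 on HDAC11-/- replicate 1 and 5.48 on WT replicate 2. Between the groups the log2 fold change was -0.26 (SE 0.08, adjusted p = 0.0444). This difference passed the adjusted p in the same direction in 4 of 13 alternatives and changed sign to 0.23 on the scale of the cre controls. It did not pass with the replicate number as a block (adjusted p = 0.0513) or with an intensity trend in the prior (adjusted p = 0.0622), and leaving out single arrays gave adjusted p-values from 0.0118 to 0.121. The second probe set (1429168_at) read 5.02, 5.24 and 5.0 on the HDAC11-/- arrays, against 5.23, 5.37 and 5.19 on the WT arrays. Its groups overlapped, and only HDAC11-/- replicate 2 stood above the bacterial controls. The third probe set lay at or below the bacterial controls on all 6 arrays, so it gives no level of Zbtb46.

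Flt3 encodes the receptor for FLT3 ligand, whose signal drives dendritic cell formation. Its probe set (1419538_at) read 5.90, 6.14 and 6.15 on the HDAC11-/- arrays, against 6.11, 5.55 and 6.20 on the WT arrays. The groups overlapped, and WT replicate 2 lay below all other arrays. The difference on the log2 scale was 0.11 (SE 0.17, adjusted p = 0.633), and its 95% interval, from -0.31 to 0.53, was the widest among the brightest probe sets of the 7 genes. Without WT replicate 2 the value was -0.09 (adjusted p = 0.465). Csf2ra, a chain of the GM-CSF receptor that acts beside FLT3, is among the receptors described below.

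Irf8 encodes an interferon regulatory factor needed for cDC1 and also used by B cells. Its brightest probe set (1416714_at) read 9.01, 8.97 and 9.0 on the HDAC11-/- arrays, against 9.07, 9.06 and 8.97 on the WT arrays. The groups overlapped on the third WT array. The log2 fold change was -0.04 (SE 0.05, adjusted p = 0.507), and its 95% interval ran from -0.16 to 0.07. The second probe set (1448452_at) read 7.74, 7.53 and 7.45 on the HDAC11-/- arrays, against 7.65, 7.56 and 7.52 on the WT arrays. Its log2 fold change was -0.01 (SE 0.08), with an interval from -0.21 to 0.19. Both intervals lay inside the 1.5-fold threshold, which is a narrower range than the one for Flt3. On the scale of the reference genes the brightest probe set was at -0.16 (adjusted p = 0.0344), and on that of the cre controls at 0.44 (adjusted p = 0.000144).

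Tcf4 encodes the E protein E2-2, a basic helix-loop-helix factor that keeps pDC identity and is also made by B cells. It had 6 probe sets, with log2 fold changes from -0.76 to -0.14 on the deposited scale, of which 5 turned positive on that of the cre controls. The one called (1416724_x_at) read 5.62, 5.60 and 5.57 on the HDAC11-/- arrays, against 6.60, 6.26 and 6.20 on the WT arrays. The groups were apart by 0.57, with WT replicate 1 the highest. HDAC11-/- Tregs were 1.69-fold lower, a log2 fold change of -0.76 with an SE of 0.11 (adjusted p = 0.00169), and between -0.84 and -0.63 with single arrays left out. On the scale of the cre controls it kept its direction at -0.28 but lost the call. The suffix of this probe set marks probes that can bind other transcripts as well. The brightest probe set (1416723_at) read 6.28, 6.22 and 6.06 on the HDAC11-/- arrays, against 6.56, 6.60 and 6.51 on the WT arrays. Here too the groups did not overlap, and the log2 fold change, -0.37 with an SE of 0.07 (adjusted p = 0.00527), turned to 0.11 on the scale of the cre controls. Of the other 4 probe sets, 3 lay at or below the bacterial controls on all arrays, so their fold changes are not read, although 2 of them passed the adjusted p. The last one (1434148_at) read 5.66, 5.48 and 5.56 on the HDAC11-/- arrays, against 5.55, 6.20 and 5.72 on the WT arrays. Its groups overlapped and its interval ran from -0.65 to 0.13. The probe sets of Tcf4 thus had the same sign on the deposited scale and different sizes, and 1 of 6 was called.

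E proteins act as dimers that ID proteins block. None of the 5 other E protein and ID genes was called by limma or SAM in its brightest probe set, with 2 lower and 2 higher at an unadjusted p under 0.05. Id3 was at -0.19 (adjusted p = 0.0134) and Id1 at 0.27 (adjusted p = 0.0161), both on the log2 scale. Id2, which is needed for cDC1 and opposes TCF4, had probe sets that disagreed. The brightest was at 0.33 (adjusted p = 0.0267), and a dimmer one was called lower at -1.09 (adjusted p = 0.000784), so no direction is given for Id2. On the scale of the cre controls 3 of the 5 genes were called higher.

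Cst3 encodes cystatin C, a secreted inhibitor of cysteine proteases that dendritic cells express strongly. Its probe set (1426195_a_at) read 10.11, 10.12 and 10.18 on the HDAC11-/- arrays, against 9.88, 9.79 and 9.82 on the WT arrays. Every HDAC11-/- array was above every WT array, with a gap of 0.24. The difference of the means was 0.31 with an SE of 0.05 (log2, adjusted p = 0.00235), higher in 3 of 3 arrays. It was positive and past the adjusted p in all 13 alternatives, from 0.19 on the scale of the reference genes to 0.79 on that of the cre controls. Of 10 genes for other cystatins and for the proteases of the endosome, 1 was called higher and none lower, against 3.46% higher and 3.72% lower among all genes, and at the adjusted p alone 4 were higher and none lower (22.9% and 23.2% of all genes). The median of the 10 was 0.15, against -0.039 over all genes. Lgmn, legumain, a lysosomal protease that cystatin C can inhibit, averaged 7.48 ± 0.10 (SD, n = 3) in HDAC11-/- and 6.16 ± 0.09 (SD, n = 3) in WT Tregs, 2.50-fold higher (adjusted p = 4.77e-05).

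Bst2 encodes tetherin, which holds budding virions on the cell surface and is used as a pDC marker in resting mice. Its probe set (1424921_at) read 9.14, 9.15 and 9.14 on the HDAC11-/- arrays, against 8.82, 8.86 and 8.83 on the WT arrays. The arrays of a genotype differed by no more than 0.04, and the groups by at least 0.28. The log2 fold change was 0.31 (SE 0.04, adjusted p = 0.00143), positive and past the adjusted p in all 13 alternatives. Bst2 is induced by interferon, and its promoter window above holds the letters of the core response element. Of 25 other interferon-induced genes, 12 were lower and 5 higher at the adjusted p, and 1, Mx1, was called lower at a log2 fold change of -0.65 (adjusted p = 0.000985). A dimmer probe set of Trim30a was called lower as well, at -0.76 (adjusted p = 0.000749). Over all genes 23.2% were lower and 22.9% higher at the adjusted p, and 3.72% were called lower and 3.46% higher. The median of the 25 was -0.15, and on the scale of the cre controls none was called lower and 6 higher. The 5 higher ones were Ifitm3 at 0.54, Oas3 at 0.43, Ifit2 at 0.25, Isg20 at 0.20 and Usp18 at 0.17, so the list went both ways.

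**Figure D2:**
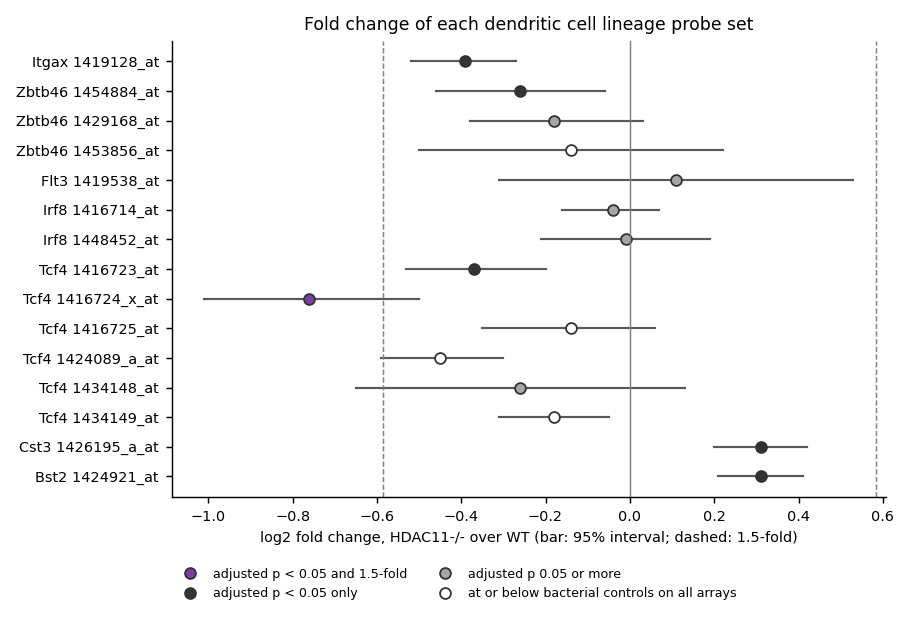
Log2 fold change (HDAC11-/- over WT) of each probe set with its 95% interval from limma, where dashed lines mark 1.5-fold. Only the x_at probe set of Tcf4, at -0.76, lies beyond the line, while Cst3 and Bst2, both at 0.31, lie on the other side of 0 from Itgax at -0.39; on the scale of the cre controls Itgax is at 0.09.

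The genes with array values most like the members' were found by the Euclidean distance between the 6 values of a gene, each centred on its own mean, among 8541 other genes above the bacterial controls. Nearest to Itgax were Dock5 (distance 0.04), a guanine nucleotide exchange factor, and Zbp1 (0.05), a sensor of Z-form nucleic acids. Nearest to Tcf4 were St3gal6 and Tars2 (0.09 each), a sialyltransferase and a mitochondrial threonyl-tRNA synthetase. Nearest to Cst3 were Lcp1 and Fh1 (0.04 each), an actin-bundling protein of leukocytes and fumarate hydratase. Choosing by this distance makes the genotype difference of a neighbour close to that of the member, so the likeness is no separate result. It was -0.39 for Dock5, -0.33 for St3gal6 and 0.30 for Lcp1 on the log2 scale.

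Other genes of dendritic cells were read from lists of each subset, without the members. For cDC1, 2 of 8 measured genes were lower and 1 higher at the adjusted p alone, against 23.2% and 22.9% of all genes. On the scale of the cre controls none was called lower and 2 higher. On the deposited scale 1 was called lower and none higher, against 3.72% and 3.46% of all genes. That gene was Batf3, a partner of IRF8 that T cells also express, at a log2 level of 6.58 ± 0.06 in HDAC11-/- and 7.44 ± 0.02 in WT Tregs (SD, n = 3 each; log2 fold change -0.86, adjusted p = 4.92e-05). Xcr1, the chemokine receptor that defines cDC1, and Cadm1 and Tlr3 lay at or below the bacterial controls. For cDC2, 1 of 10 genes was lower and 3 higher at the adjusted p alone. Of the 10 genes, 1 was called higher (3.46% of all genes) and none lower (3.72% of all genes). That gene was Klf4, an early response factor in many cells, at 9.68 ± 0.04 in HDAC11-/- and 5.65 ± 0.32 in WT Tregs (SD, n = 3 each; log2 fold change 4.03, adjusted p = 9.31e-06). Cd209a, Clec10a, Clec4a2, Itgam and Mgl2, 5 surface genes of this list, lay at or below the bacterial controls on all arrays.

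For pDC, 2 of 10 genes were called lower and none higher, against 3.72% and 3.46% of all genes, but none lower and 1 higher on the scale of the cre controls. Spib, a factor of pDC and B cells, averaged 5.38 ± 0.12 in HDAC11-/- and 6.26 ± 0.13 in WT Tregs (SD, n = 3 each; log2 fold change -0.89, adjusted p = 0.000403). Blnk, an adaptor of the B cell receptor, was within the range of the bacterial controls on all HDAC11-/- arrays and at least 1.49-fold lower there (adjusted p = 0.00796), a bound taken against the highest control. At the adjusted p alone 6 of these pDC genes were lower and 1 higher, against 23.2% and 22.9% of all genes. Of the 6, Klk1 lay at or below the bacterial controls on all arrays and is not read. Tlr9, like Blnk, lay there on all HDAC11-/- arrays. The list median was -0.24, against -0.039 over all genes. Tyrobp encodes DAP12, the adaptor that Siglec-H signals through and that NK cells and myeloid cells share. It averaged 7.49 ± 0.09 in HDAC11-/- and 8.30 ± 0.16 in WT Tregs (SD, n = 3 each; log2 fold change -0.82, adjusted p = 0.000622).

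None of 12 genes of mature and migratory dendritic cells was called by limma or SAM, with 3 lower and 1 higher at an unadjusted p under 0.05. Cd86, the costimulatory ligand, was at -0.41 (adjusted p = 0.000835), and Fscn1, the actin bundler of migrating dendritic cells, at 0.34 (adjusted p = 0.00109). Of 19 factors and receptors of dendritic cell development, Kit was called lower at -0.86 (adjusted p = 0.000254) and Cebpa higher at 0.79 (adjusted p = 0.000127). Over all genes 3.72% were called lower and 3.46% higher. At the adjusted p alone 3 of the 19 were lower and 6 higher, against 23.2% and 22.9% of all genes. Kit is the receptor of stem cell factor and Cebpa a myeloid factor. The second probe set of Kit lay at or below the bacterial controls. Counting any probe set of a gene instead of the brightest gave 4 genes lower and 2 higher, since dimmer ones of Runx1 (-0.99), Csf2ra (-0.60) and Id2 (-1.09) were lower and 2 of Csf1r (1.13 and 0.73) higher. The brightest probe set of Csf1r was at -0.02 (adjusted p = 0.867). On the scale of the cre controls none of the 19 genes was lower and 8 were higher by the brightest. Csf2ra was at -0.46 (adjusted p = 0.0126), below the fold threshold, and Spi1, which encodes PU.1, at -0.19 (adjusted p = 0.248).

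**Figure D3:**
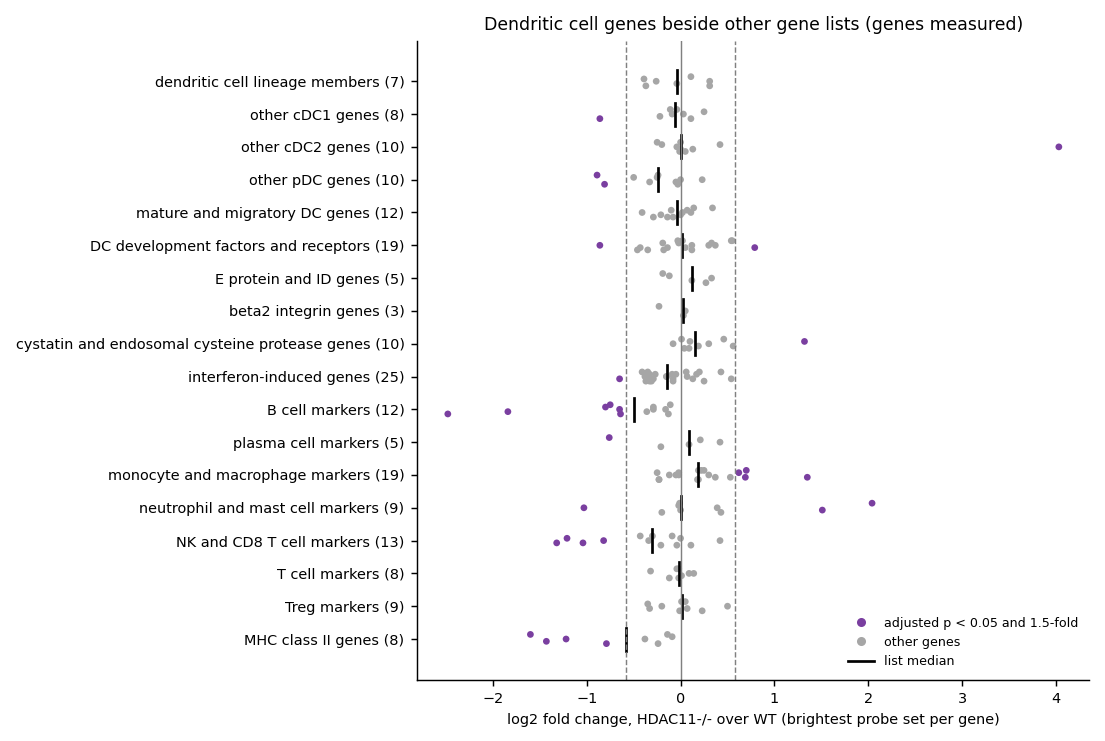
Log2 fold change (HDAC11-/- over WT) of each gene by its brightest probe set, in 18 lists with the number measured in brackets; black lines mark list medians and dashed lines 1.5-fold. The 7 dendritic cell lineage genes lie within the dashed lines with a median of -0.04, MHC class II genes have a median of -0.58 and B cell markers one of -0.50.

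Genes used as markers of other cell types moved with genotype beside these genes, and which cells made their transcripts was not tested. In a bulk preparation, fewer cells of a type and less RNA per cell cannot be told apart. Of 12 measured B cell markers 6 were called lower and none higher by the brightest probe set, against 3.72% lower and 3.46% higher of all genes, and 2 were lower on the scale of the cre controls. The mean log2 level of the list was 6.48 to 6.56 on HDAC11-/- arrays and 7.19 to 7.25 on WT arrays. Blk, Ms4a1, Cd79a, Cd22 and Ralgps2 were lower by 2.48, 1.84, 0.75, 0.65 and 0.64 on the log2 scale, while Cr2 was at least 1.12-fold lower and Pax5, Ebf1, Vpreb3 and Fcer2a lay at or below the bacterial controls. Dimmer probe sets of Ralgps2 were at -0.17 and 0.31. Ighm, the heavy chain of IgM, had 5 dimmer probe sets called higher, among them 2 above the bacterial controls on all arrays at 1.88 and 1.27, while its brightest was at -0.11 (adjusted p = 0.0811). Of 8 MHC class II genes 4 were called lower, with H2-Aa at -1.60, H2-Ab1 at -1.43, H2-Eb1 at -1.22 and Cd74, the invariant chain, at -0.79. The list averaged 8.19 to 8.25 on HDAC11-/- arrays and 8.91 to 8.97 on WT arrays.

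Of 13 NK and CD8 T cell markers 4 were called lower and none higher, against 3.72% and 3.46% of all genes. The 4 were Fcer1g at -1.32, Gzma at -1.21, Ncr1 at -1.04 and Tyrobp, while on the scale of the cre controls 2 were lower and 2 higher. At the adjusted p alone 7 were lower and 1 higher (23.2% and 22.9% of all genes). Of the CD8 chains of this list, Cd8b1 was at 0.42 (adjusted p = 0.00671) and Cd8a at -0.04 (adjusted p = 0.561). Cd8a exceeded the bacterial controls on only 1 WT array, so a decrease could not be read from it. Neither Nkg7 at 0.0 (adjusted p = 0.984), Xcl1 at -0.09 (adjusted p = 0.471) nor Prf1 at -0.21 (adjusted p = 0.0709) passed the test. The list averaged 6.91 to 6.95 on HDAC11-/- arrays and 7.29 to 7.39 on WT arrays. Of 19 monocyte and macrophage markers 4 were called higher and none lower, against 3.46% and 3.72% of all genes. At the adjusted p alone 9 were higher and 1 lower (22.9% and 23.2% of all genes). On the scale of the reference genes 1 was called higher, and on that of the cre controls 12. The list averaged 5.31 to 5.42 on HDAC11-/- arrays and 5.10 to 5.16 on WT arrays. Of the 4 called, Vcam1 was at 1.35, with other probe sets at 0.19 and -0.04, and C1qa was at least 1.16-fold higher. C1qc exceeded the bacterial controls on 1 HDAC11-/- array and gives no fold, and C1qb is one of 8 genes of the list that never exceeded them. Of 9 neutrophil and mast cell genes 2 were called higher and 1 lower, against 3.46% and 3.72% of all genes. At the adjusted p alone 4 were higher and 1 lower (22.9% and 23.2% of all genes), and the list median was 0.0. The called ones were S100a8 and S100a9 of neutrophils, at least 1.44-fold and 1.25-fold higher, and Cpa3 of mast cells at -1.03. Ltf, Mpo and Mcpt8 of this list lay at or below the bacterial controls on all arrays. Of 5 plasma cell genes, Sdc1 was called lower at -0.76, and at the adjusted p alone 2 were lower and 2 higher, the higher ones being Prdm1 at 0.42 (adjusted p = 0.00145) and Xbp1 at 0.21 (adjusted p = 0.00788). The part of these cells in the values of Itgax, Tcf4, Cst3 and Bst2 was not tested.

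Markers of the labelled cells were present. The list of 8 T cell genes averaged 12.09 to 12.11 on HDAC11-/- arrays and 12.13 to 12.16 on WT arrays, with none called by limma or SAM in its brightest probe set and 2 lower and 1 higher at an unadjusted p under 0.05. Cd4 was at -0.32 (adjusted p = 0.00121) and Thy1 at 0.14 (adjusted p = 0.0438), and a dimmer probe set of Zap70, a kinase of the T cell receptor, was called lower at -0.65 (adjusted p = 0.000468). Of 9 Treg markers none was called by limma or SAM (3 lower and 2 higher at an unadjusted p under 0.05), with Ctla4 at 0.50 (adjusted p = 0.000269) and Gpr83 at -0.33 (adjusted p = 0.00299). The Foxp3 probe set lay at or below the bacterial controls on all arrays and gives no level. Hdac11 averaged 6.29 ± 0.07 in HDAC11-/- and 6.40 ± 0.12 in WT Tregs (SD, n = 3 each; adjusted p = 0.222) in its brightest probe set. The sources used here do not say where its probes lie relative to the deleted part, so this checks neither deletion nor labels. Correlation between arrays was 0.9982 to 0.9987 within HDAC11-/-, 0.9969 to 0.9975 within WT and 0.9852 to 0.9878 between the genotypes.

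**Figure D4:**
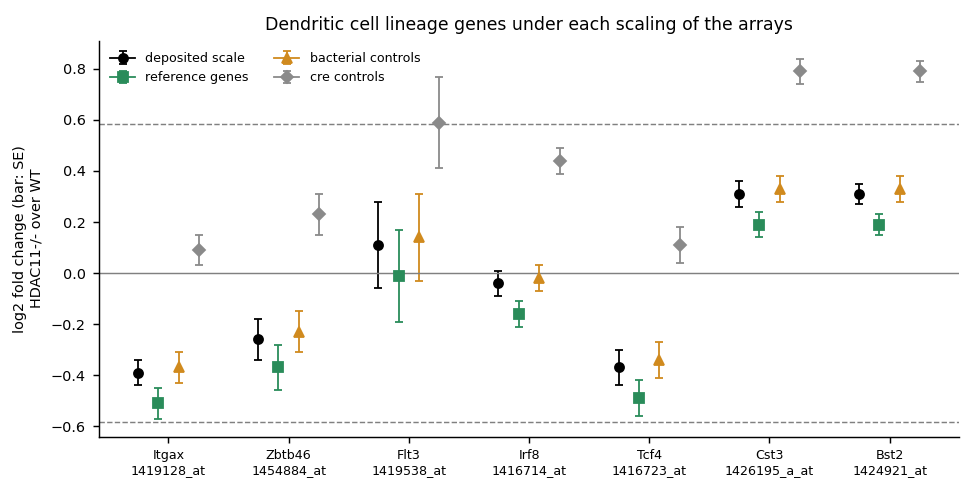
Log2 fold change (HDAC11-/- over WT, bars show the SE) of the brightest probe set of each of the 7 genes on the deposited scale and after scaling the arrays on 12 reference genes, 27 bacterial controls or 3 cre controls. Cst3 and Bst2 stay above 0 on all 4 scales, from 0.19 to 0.79, and Itgax, Zbtb46 and Tcf4 are below 0 on 3 of them and at 0.09, 0.23 and 0.11 on the cre scale.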

How the data were processed

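The members and gene lists were chosen with earlier results of these data known. The authors amplified the RNA, hybridised it to Affymetrix Mouse430A arrays and normalized them by RMA in MAYDAY 2.12, and the deposited values are on the log2 scale (array medians 6.74 to 6.77, not centred per gene). RMA corrects background and gives all arrays one distribution, so a shift of all genes would be removed. No source used here gives the version of the probe definitions.

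The 22626 probe sets left after 45 controls were fitted with limma 3.58.1 (lmFit, eBayes, genotype only) in R 4.3.3, with Benjamini-Hochberg adjustment. Calls used 0.05 for the adjusted p and 1.5-fold, the thresholds of the methods. SAM, the test of the methods, was run over 20 labelings. A probe set was taken as within background where no array of a group exceeded its highest bacterial control (of 27), and a difference from such a group is given as a bound against that control. The files used hold no detection calls. Of all probe sets 20380 name 1 gene (12393 genes), 691 several and 1555 none here. List genes named in the text are those called by their brightest probe set or, where none was, the 2 with the smallest adjusted p. Id2, Csf2ra, Spi1, Itgam, Prdm1, Xbp1, Nkg7, Xcl1, Prf1 and the CD8 chains were added after their values were seen. So were the 5 higher interferon-induced genes, genes named for a dimmer probe set and genes named as within background.

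It is not stated if each array had a mouse of its own, so the p-values rest on the spread between arrays alone, which may be technical. Their number limits the precision. On simulated arrays for this comparison with 22626 probe sets, limma called 45 of 50 changed 2-fold and 42 of 50 changed 0.5-fold. It called 14 of 50 changed 1.5-fold, which is the threshold itself (33 passed the adjusted p), and 3 of 22426 unchanged ones. Far fewer probe sets were changed there than passed the adjusted p here (45.6%), so these rates may not hold for the real arrays. The alternatives comprised SAM, a robust prior with an intensity trend, a replicate block, 3 scalings, a filter on dim probe sets, other fold thresholds and gene rules, and leaving out each array. Figures were drawn with matplotlib 3.10.9.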

Additional observations from a re-analysis of the deposited data

How the results depend on the processing

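Over the 15 probe sets, 1 lower and 0 higher calls were found with SAM, an intensity trend, the replicate block, the scales of reference genes and bacterial controls, the filter on dim probe sets, and each array left out in turn. Without a fold threshold 6 were lower and 2 higher (3 and 2 genes by the brightest probe set), and at 2-fold there were 0 and 0. Counting any probe set of a gene gave 1 gene lower.

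Scaling on the cre controls, which lie near the top of the range (13.77 to 13.80 on HDAC11-/- arrays, 14.26 to 14.29 on WT arrays), gave 0 lower and 3 higher, both by probe set and by gene. There Flt3, Cst3 and Bst2 were called at 0.59, 0.79 and 0.79. Values that changed sign were Itgax at 0.09, Irf8 at 0.44 and 0.47, Tcf4 at 0.11, 0.34, 0.04, 0.22 and 0.31, and Zbtb46 at 0.31, 0.34 and 0.23. The cause was not tested. Flt3 turned to -0.01 on the scale of the reference genes, and the second Irf8 probe set to 0.02 on that of the bacterial controls. With single arrays left out, the second Irf8 probe set ranged from -0.09 to 0.05 and Flt3 from -0.09 to 0.23.

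Over the array, 1138 probe sets were lower and 876 higher. The counts were 1726 and 554 on the scale of the reference genes, 331 and 7310 on that of the cre controls, 5070 and 5254 without a fold threshold, and 393 and 253 at 2-fold. The values do not settle whether the replicate numbers pair the arrays. Correlations of same-numbered arrays, as deviations from their group mean, were 0.23, -0.0187 and 0.163. The values 0.23 and 0.163 were the highest between arrays of different genotype, but HDAC11-/- replicate 2 correlated best with WT replicate 3 (0.0605). The replicate block gave 1154 lower and 877 higher over the array and 1 and 0 among the 15. Of 510 counts in the other lists under alternatives, 445 stayed within 1.5 times and 65 did not. On the scale of the cre controls 3 cDC2 genes, 3 genes of mature dendritic cells, 5 cystatin and protease genes, 4 neutrophil and mast cell genes, 2 plasma cell genes, 2 Treg markers and 1 T cell gene were called higher and none of these lists had a lower call. The arrays give no depth, and 4 of the 15 probe sets did not exceed the bacterial controls on any array, so a difference there was not measurable.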

Other observations

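The ligand of Flt3 was measured only by a probe set that the annotation shares between Flt3l and Rpl13a, a ribosomal protein gene, so neither gene can be read from it alone. It averaged 8.86 ± 0.04 on HDAC11-/- arrays and 8.60 ± 0.01 on WT arrays (SD, n = 3 each), a difference of 0.25 with an SE of 0.05 (log2, adjusted p = 0.00443), higher in 3 of 3 arrays and below the fold threshold.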
